A study of Mus musculus with 8 samples.

Results

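The regions described here were bound by E2f3 in at least 2 of the 4 E2f3 libraries, lay more than 1 kb from every start site of a protein-coding transcript, and had no Myc site beside them. There were 1180 of them among the 42322 E2f3 regions of the series. Binding had been mapped in mouse intestinal crypt and villus cells by ChIP-exo-seq, in which immunoprecipitated chromatin is digested by an exonuclease that stops where a protein is crosslinked. The 4 E2f3 groups were Rb-deficient crypt, control crypt, Rb-deficient villus and control villus, with 1 library each, and the Myc libraries came from the same 4 kinds of cells. The Rb-deficient mice had lost Rb through Ah-cre, an inducible Cre recombinase used for the intestine. The controls were labelled wild type, and whether they carried the Cre is not stated. The antibodies against E2f3 and Myc came from Santa Cruz. All mice had the same mixed background, given as C57BL/6 X 129 X FVB/N. The labels do not state age, sex, how many animals stand behind a library or how completely Rb was lost in the sampled cells. With 1 library per group no difference between groups was tested, so every difference below describes these libraries.

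E2f3 is an E2F transcription factor that binds short G+C-rich sites, best known from promoters of genes for DNA replication and mitosis. The Rb protein binds activating E2Fs and holds them in check until cyclin-dependent kinases phosphorylate it. Intestinal stem and progenitor cells divide in the crypts, and their differentiated, mostly absorptive progeny cover the villi. Myc is a partner of Max at E-box sites and shares many growth-related targets with E2F. Sites far from promoters can lie in enhancers, at starts of non-coding RNAs or at places with no annotated function, and a list of sites does not tell these apart.

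The members were chosen by measured positions, so their number, their distance from starts, the absence of Myc and the recurrence across libraries are a description. The 4 E2f3 lists held 82310 sites, namely 27396 in Rb-deficient crypt, 32666 in control crypt, 14843 in Rb-deficient villus and 7405 in control villus. A Myc site of any of the 4 Myc lists lay within 250 bp of 78.0%, 86.4%, 76.2% and 85.1% of these sites, in the same order, and such sites were dropped. For regions without Myc, a library said to have no site had none kept, and a dropped site could have stood there. Shares over all E2f3 regions use the sites before this step. The remaining 15097 sites formed 8124 regions when sites within 250 bp were joined, and 3707 of those regions had sites of 2 or more libraries. Of these, 2502 lay within 1 kb of a coding start and serve below as the promoter regions without Myc. The regions just inside the limit lay 1000.5 bp from the start of Sgpp2 and 1002 bp from that of Magi1, and those just outside it lay 997 bp from Cnih4 and 996.5 bp from Gm7461. Further comparison sets were 2513 distal regions without Myc seen in 1 library and 17257 distal regions of 2 or more libraries with a Myc site.

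The Myc lists held 31397 sites in Rb-deficient crypt, 159181 in control crypt, 4119 in Rb-deficient villus and 7223 in control villus, and the control crypt list decided much of the membership. Without it 4015 regions met the rule, and without the Rb-deficient crypt E2f3 list 620 did. The members lay at a median of 4139.5 bp from the nearest Myc site, and 174 of them (14.7%) had one within 1 kb, outside the 250 bp limit.

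The letters under the best-ranked sites are shown first, because they are what the members most plainly had in common. The E2F motif was searched on both strands in its most common form TTCCCGC, and also as the related TTCGCGC, the related TTGCCGC and the related TTGGCGC. The 5 regions below had the motif and stood among the first 5 members in introns or between genes, ordered by the rank of their weakest library over all 4. Each sequence is the plus strand of mm9, 41 bases centred on the best-ranked site, and capitals mark the E2F motif.
N4bp1 intron, chr8:89406594-89406634: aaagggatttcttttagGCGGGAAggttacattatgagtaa
Zfp420 intron, chr7:30693428-30693468: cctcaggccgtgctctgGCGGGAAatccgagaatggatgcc
Armc9 intron, chr1:88080784-88080824: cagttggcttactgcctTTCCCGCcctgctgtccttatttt
15456 bp upstream of Krt19, chr11:100022870-100022910: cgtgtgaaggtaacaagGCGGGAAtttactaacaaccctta
Region nearest to Pgk2, chr17:39981663-39981703: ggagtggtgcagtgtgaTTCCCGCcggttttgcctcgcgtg

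In all 5, the central base of the motif was the deposited position itself. The region nearest to Pgk2 lay 363871 bp from that start, and whether repeated sequence raised its scores was not tested. N4bp1, an RNA-binding regulator of inflammatory signalling, had scores of 97.80 in Rb-deficient crypt, 87.88 in control crypt, 53.16 in Rb-deficient villus and 56.42 in control villus. Krt19 encodes a keratin of simple epithelia, and the region upstream of it had scores of 235.51, 135.37, 145.95 and 51.72 in the same libraries. The scores are the authors', run to a cap of 999, and their meaning is not stated, so they rank sites within a list and were not compared between lists.

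Of the 1180 members, 557 had the E2F motif within 50 bp of their best-ranked site (47.2%, exact 95% binomial interval 44.3 to 50.1%). In flanking windows 2 kb away on either side the share was 0.593%, and in all genome windows of that length more than 1 kb from a coding start it was 0.396%. The promoter regions without Myc had the motif in 46.6%, a share inside the interval of the distal members for this motif and window. Distal regions without Myc seen in 1 library had it in 12.6%, and distal regions with Myc in 0.875%, where the windows 2 kb away had 0.495%. All intervals in this text cover counting error only and say nothing about variation between mice.

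**Figure D1:**
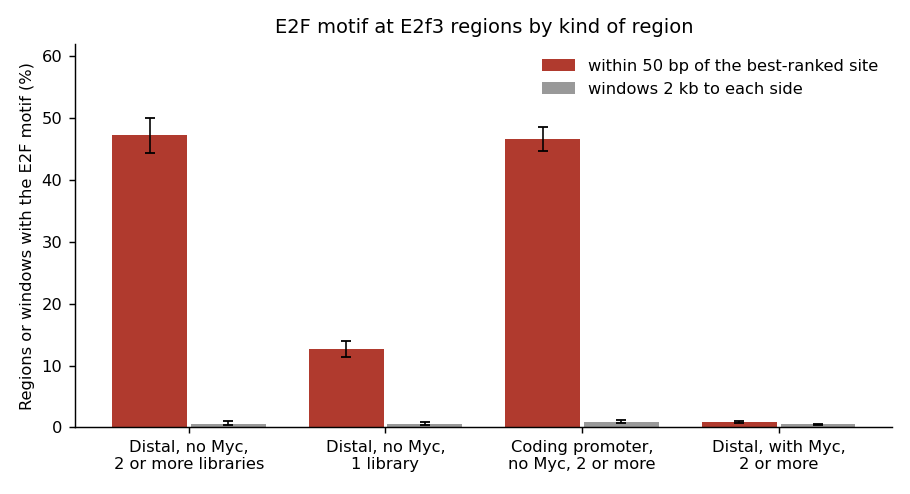
Share of E2f3 regions with the E2F motif within 50 bp of the best-ranked site (red), by kind of region, beside flanking windows 2 kb away on either side (grey); whiskers are exact 95% binomial intervals. Distal regions without Myc reach 47.2% and promoter regions without Myc 46.6%, while distal regions with Myc stand at 0.875%.

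Seen from the motif, 708 distal regions of 2 or more libraries had it, and 557 of these (78.7%, 75.5 to 81.6%) had no Myc site beside them. Over all 18437 distal regions of 2 or more libraries, 6.40% had none. Dropping the control crypt Myc list from the rule added 2835 regions, of which 54 had the motif, so that 611 of the 4015 regions (15.2%) carried it. Counting for each region the form nearest to its best-ranked site, TTCCCGC was that form in 477 of the 557 regions, TTGCCGC in 32, TTGGCGC in 31 and TTCGCGC in 17. The centre of the motif was exactly at the best-ranked site in the same number of regions, 477 (85.6%), and within 5 bp of it in 519 (93.2%). The caller of the sites may itself use motif letters to place them, and its settings are not stated. With a window of 250 bp to each side the share was 52.5%, against 4.66% in windows 2 kb away and 58.7% of promoter regions without Myc.

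A looser count reached more members. The letters TCCCGC, chosen after the shares of single 7-mers had been seen, stood on either strand within 50 bp of 772 members (65.4%, 62.6 to 68.1%), against 1.57% of the windows 2 kb away and 75.5% of the promoter regions without Myc. The most frequent 7-mer was GGCGGGA, at 48.4% of members and 0.720% of the windows 2 kb away, followed by GCGGGAA, the reverse complement of TTCCCGC, at 480 members (40.7%) and 0.254% of those windows. Next came CCCGCCC at 29.7% of members and 1.31% of those windows. The following 3 regions were among the highest ranked without the strict motif, and capitals mark TCCCGC or its reverse complement on the plus strand of mm9.
Tmprss6 intron, chr15:78278276-78278316: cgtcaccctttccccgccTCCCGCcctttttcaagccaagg
Rprd1b and Tgm2 intron, chr2:157956073-157956113: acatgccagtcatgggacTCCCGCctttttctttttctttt
4546 bp upstream of Slc2a5, chr4:149488826-149488866: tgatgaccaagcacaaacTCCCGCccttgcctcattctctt

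The first of these lies in Tmprss6, a membrane protease, and had scores of 999.00 in Rb-deficient crypt, 270.49 in control crypt, 53.79 in Rb-deficient villus and 46.20 in control villus. In the overlapping genes Rprd1b and Tgm2 (Tgm2 encodes a transglutaminase) the scores were 999.00, 290.21, 137.03 and 43.20 in these libraries. The region upstream of Slc2a5, the fructose transporter of enterocytes, had 46.61, 61.22, 44.61 and 20.66. Each of the 3 was seen in every library.

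Other letters were less common. The GC box GGGCGG, a site of Sp-family factors, stood at 33.6% of members, 2.84% of the windows 2 kb away and 55.0% of the promoter regions without Myc. A GC box can overlap the E2F motif. Of motifs of other factor families, searched on both strands, the ETS motif CCGGAA stood at 3.14% of members and 1.61% of the windows 2 kb away. The AP-1 motif TGACTCA, with its form TGAGTCA, stood at 3.22% of members and 1.86% of those windows. The GATA motif AGATAAG stood at 2.80% and 1.10%, the HNF4 motif CAAAGTC at 2.46% and 1.23%, and the NRF1 motif GCGCATG at 1.27% and 0.381%. The TCF motif CTTTGAT stood at 1.44% of members and 1.74% of those windows, and the CRE motif TGACGTC at 0.339% and 0.424%. The CCAAT box, as CCAATC or CCAATG, stood at 8.05% and 7.37%, and the CHR element of cell cycle genes, as TTCGAA or TTTGAA, at 10.4% and 9.15%. The motif of the intestinal CDX factors, TTTATNN with G or T and then A or G at the end, stood at 7.46% and 6.31%. The Myc E-box CACGTG stood at 2.203% of members and 1.40% of those windows. A match describes letters in a window and does not show that a factor was bound there.

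By place, 42.5% of the members lay in introns of protein-coding genes (39.6 to 45.3%), 56 in exons (4.75%, 3.60 to 6.12%) and 623 between genes (52.8%, 49.9 to 55.7%). Of all genome bases more than 1 kb from a coding start, 35.5% were intronic, 2.55% exonic and 61.9% intergenic. Both gene classes therefore exceeded their share of bases, by more than the counting interval. The distal regions with Myc had 43.9% in introns and 2.51% in exons, and the distal regions of 1 library 39.8% and 3.02%. The E2F motif stood at 47.9% of members in introns, 53.6% of those in exons (39.7 to 67.0%) and 46.1% of those between genes, with overlapping intervals.

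**Figure D2:**
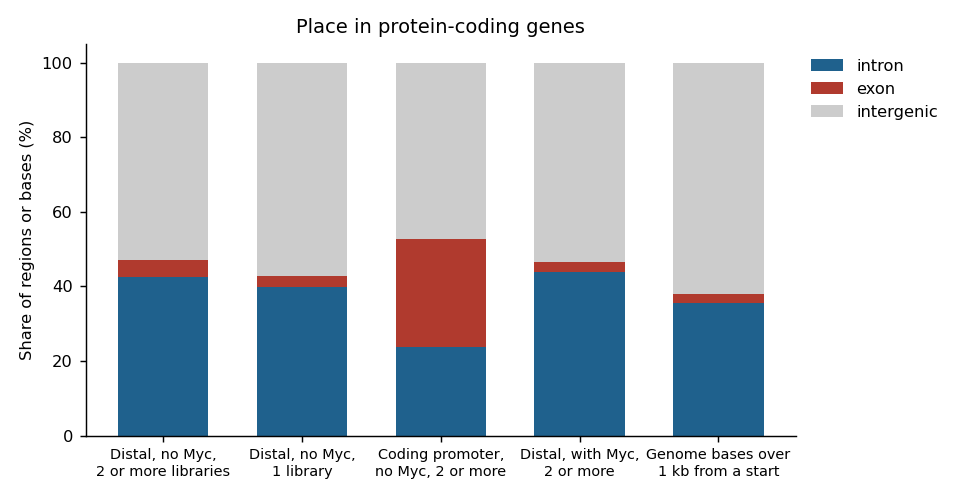
Share of regions in introns (blue), exons (red) and between protein-coding genes (grey) for each kind of E2f3 region, with the genome bases more than 1 kb from a coding start at the right. Of distal regions without Myc 42.5% are intronic and 4.75% exonic, against 35.5% and 2.55% of the bases.

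The median distance to a coding start was 14770.5 bp, against 26736 bp for distal regions of 1 library and 44804 bp for distal regions with Myc. Between 1 and 5 kb from a start lay 290 members (24.6%), between 5 and 20 kb 394 (33.4%), between 20 and 100 kb 383 (32.5%) and farther away 113 (9.58%). The E2F motif stood at 50.3%, 47.5%, 44.1% and 48.7% of these classes, whose intervals overlapped. Downstream of the nearest coding start lay 609 members and upstream of it 571.

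The bases around the members were richer in G+C than the genome. In windows of 250 bp to each side the median G+C content was 49.5%, against 41.6% G+C in all genome bases of the distal windows, 43.3% for distal regions of 1 library, 42.1% for distal regions with Myc and 61.3% for promoter regions without Myc. A CpG-rich window, with at least 50% G+C and an observed over expected CpG ratio of at least 0.6, held 213 members (18.1%, 15.9 to 20.4%). That was true of 6.33% of distal regions of 1 library, 0.417% of distal regions with Myc and 80.3% of promoter regions without Myc. The E2F motif stood at 51.2% of CpG-rich members (44.3 to 58.1%) and at 46.3% of the others (43.1 to 49.5%), and these intervals overlap.

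Within a region the libraries often named the same base. In 693 members (58.7%, 55.9 to 61.6%) all sites of all contributing libraries lay at 1 position, against 54.7% of promoter regions without Myc and 2.03% of distal regions with Myc. The caller, whose settings are not stated, may itself place sites on motif letters. Its part in this agreement was not tested. The median span of a member was 1 bp and the widest member spanned 352 bp. The central 31 bp of 11 members (0.932%) occurred more than once in the reference.

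Starts of non-coding transcripts lay within 1 kb of 104 members (8.81%, 7.26 to 10.6%). The share was 1.89% of genome bases more than 1 kb from a coding start, 2.09% of distal regions with Myc and 4.70% of distal regions of 1 library. Non-coding transcripts of coding genes accounted for 46 of the 104, lincRNAs for 25, processed transcripts for 15, miRNAs and snRNAs for 5 each, pseudogenes for 4, snoRNAs for 3 and a further class of small RNA for 1. Of the 25 beside lincRNAs, 19 were in CpG-rich windows, 16 lay within 250 bp of the start and 9 had the E2F motif. Within 250 bp of any non-coding start lay 3.73% of members. The 3 sequences below stand beside non-coding starts, on the plus strand of mm9, with the E2F motif in capitals; in the last, 2 matches on opposite strands overlap.
Beside Mirlet7i, chr10:122423520-122423560: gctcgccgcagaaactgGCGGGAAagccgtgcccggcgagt
Beside B230206F22Rik, chrX:100817799-100817839: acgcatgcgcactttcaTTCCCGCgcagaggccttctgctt
Id3 intron, chr4:135700624-135700664: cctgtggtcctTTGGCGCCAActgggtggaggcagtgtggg

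Mirlet7i encodes a microRNA of the let-7 family, known to restrain growth genes. The region 770.5 bp from its start had scores of 225.43 in Rb-deficient crypt, 85.90 in control crypt and 68.36 in control villus, and no site in Rb-deficient villus. Regions lay beside the miRNA genes Mir212, Mir203 and Mir210 as well, each seen in 2 libraries with scores between 3.40 and 14.39. These were named after their values were seen, as were the following lincRNA and snRNA regions.

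The lincRNA B230206F22Rik had 2 regions at its starts. The one 20 bp from a start was present in all 4 libraries, with scores of 98.11 in Rb-deficient crypt, 69.65 in control crypt, 54.66 in Rb-deficient villus and 13.51 in control villus. Dleu2, the host transcript of a microRNA cluster lost in lymphoid leukaemias in humans, had 3 regions, one of them in all 4 libraries. Starts annotated as U1, the spliceosomal RNA, stood beside 3 regions, all with the E2F motif, of which 2 lay in an intron of Tex14 and one was present in all 4 libraries. Id3 encodes a helix-loop-helix inhibitor, and its intron region, 248 bp from a non-coding start, had scores of 79.78, 73.18, 33.60 and 16.33 in the order given above.

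Across libraries, 1125 members had a site in Rb-deficient crypt (95.3%), 928 in control crypt (78.6%), 794 in Rb-deficient villus (67.3%) and 269 in control villus (22.8%). The most frequent combination was the 2 crypt libraries without villus, with 333 members. Sites in both crypt libraries and Rb-deficient villus formed 329 members, and the 2 Rb-deficient libraries alone formed 215. All 4 libraries had a site in 182 members (15.4%, 13.4 to 17.6%). The pair of Rb-deficient libraries made up 18.2% of the members, against 5.70% of all 21918 E2f3 regions of 2 or more libraries. The control crypt E2f3 list lost the largest share of its sites to the Myc rule, 86.4%, and the part of this loss in the pattern was not tested.

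**Figure D3:**
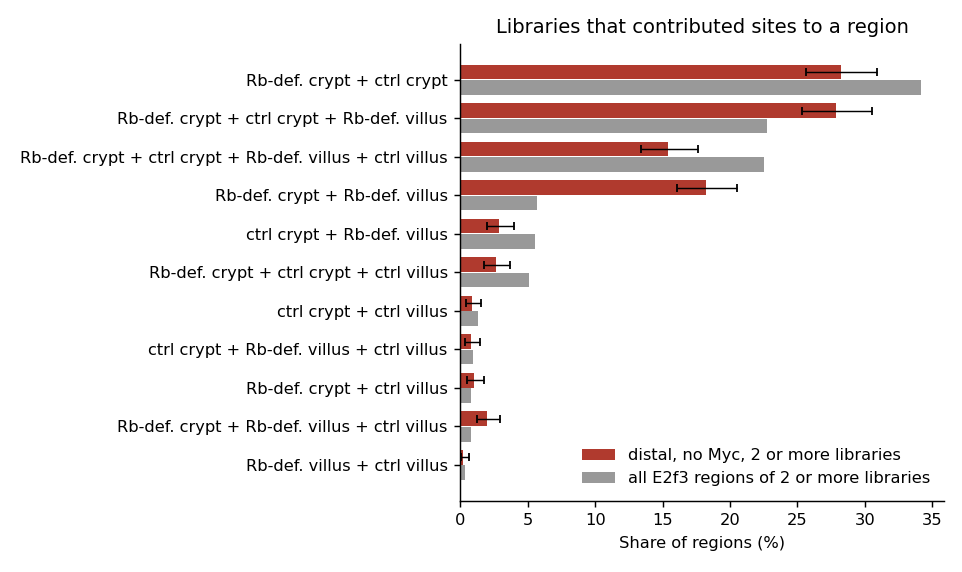
Share of regions by the set of E2f3 libraries that contributed a site, for distal regions without Myc (red, with exact 95% binomial intervals) and for all E2f3 regions of 2 or more libraries (grey). The 2 Rb-deficient libraries alone account for 18.2% of the distal regions without Myc and 5.70% of all.

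In villus, 578 members had a site in Rb-deficient and none in control cells (49.0%, 46.1 to 51.9%), 53 had the opposite pattern (4.49%), 216 had both and 333 neither. Over all 42322 E2f3 regions, of any number of libraries, 21.4% had a site in Rb-deficient villus and none in control villus, and 4.46% the opposite. That background includes regions of 1 library, while the rule asked for 2, and was formed before sites beside Myc were dropped. Over the promoter regions without Myc, of which the same was asked, the shares were 52.3% and 4.92%. All E2f3 regions of 2 or more libraries, also with sites beside Myc kept, give a background under the 2-library limit. There, Rb-deficient without control villus came with both crypt libraries in 22.8%, Rb-deficient crypt alone in 5.70% and control crypt alone in 5.52%. The opposite came with these in 5.13%, 0.821% and 1.32%. Among members the shares were 27.9%, 18.2% and 2.88%, and for the opposite 2.63%, 1.02% and 0.847%. The Rb-deficient villus list was also longer than the control villus list. When each list was reduced to its 7405 highest-scored sites, 417 regions met the rule, and 39.3% of these had a site in Rb-deficient and none in control villus, against 7.91% with the opposite pattern.

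In crypt, 250 members had a site in Rb-deficient and none in control cells (21.2%, 18.9 to 23.6%), and 53 the opposite (4.49%, 3.38 to 5.83%). Both crypt libraries had a site in 875 members. Over all E2f3 regions the shares were 19.4% and 32.1%. That background includes regions below the 2 libraries asked of the members, and was formed before sites beside Myc were dropped. Over promoter regions without Myc, of which the same was asked, they were 23.7% and 3.76%. The next shares are of all E2f3 regions of 2 or more libraries. Rb-deficient crypt without control crypt came with Rb-deficient villus alone in 5.70%, control villus alone in 0.821% and both in 0.789%. The opposite came with these in 5.52%, 1.32% and 0.908%. Among members the shares were 18.2%, 1.02% and 1.95%, and for the opposite 2.88%, 0.847% and 0.763%. At equal list length the crypt shares were 35.7% and 2.88%. Without the control crypt Myc list in the rule, 9.74% of the regions had a site in Rb-deficient and none in control crypt. Without the Rb-deficient villus E2f3 list the share was 3.77%, since such a region then needs a control villus site.

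The share with the E2F motif differed with the number of libraries. It stood at 38.4% of members seen in 2 libraries (34.6 to 42.5%), at 50.3% of those in 3 (45.2 to 55.3%) and at 69.8% of those in 4 (62.5 to 76.4%). In villus, members with a site in Rb-deficient and none in control cells had it in 38.9% (34.9 to 43.0%), and members with sites in both in 67.1% (60.4 to 73.4%). In crypt the shares were 31.2% of members with a site in Rb-deficient and none in control cells (25.5 to 37.3%) and 52.3% of those with both (49.0 to 55.7%). Members of the 2 Rb-deficient libraries alone had the motif in 27.9% (22.02 to 34.4%). These presence classes overlap with the number of libraries. The 182 members of all 4 libraries are among the 216 with both villus sites and the 875 with both crypt sites. A member that lacks a control site has 3 libraries at most. The part of each in the motif share was not tested.

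**Figure D4:**
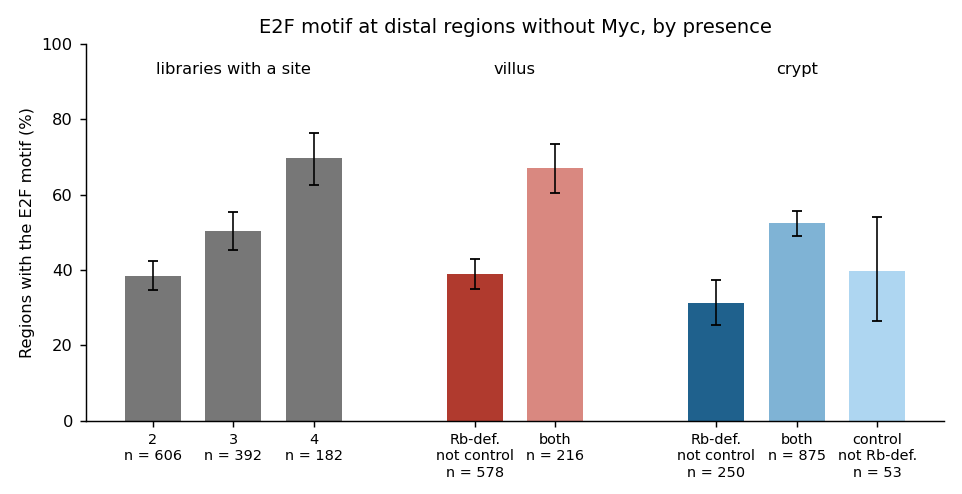
Share of distal regions without Myc that had the E2F motif, by the number of libraries with a site and by presence in Rb-deficient and control villus and crypt; whiskers are exact 95% binomial intervals. The share is 69.8% in regions of all 4 libraries and 38.4% in regions of 2.

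The same order by presence held in the highest class of score, where the number of libraries was not held fixed. Among members scored above 75% of the Rb-deficient villus list, the motif stood at 42.6% of the 115 with no control villus site (33.4 to 52.2%) and at 72.4% of the 134 with one (64.0 to 79.8%). Among members scored above 75% of the Rb-deficient crypt list, it stood at 39.6% of the 53 with no control crypt site (26.5 to 54.0%) and at 58.7% of the 368 with one (53.5 to 63.8%). In the lowest class of the Rb-deficient villus list, up to 25%, the shares were 36.3% of 146 and 33.3% of 12, and the second rests on too few regions to be set apart from the first. From 25 to 50% they were 37.3% of 177 and 64.7% of 17, and from 50 to 75% 40.7% of 140 and 62.3% of 53. In crypt the shares from the lowest class up were 27.4% of 62 and 45.6% of 125, 31.1% of 61 and 46.2% of 169, and 28.4% of 74 and 50.2% of 213. Of these lower classes, the intervals were apart in the last alone.

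Members were spread over the upper and lower parts of each list. The median member outscored 63.7% of the Rb-deficient crypt list, 52.9% of the control crypt list, 56.0% of the Rb-deficient villus list and 40.9% of the control villus list. Distal regions of 1 library had 18.3%, 12.6%, 15.2% and 10.4%. Members of all 4 libraries had 92.4%, 87.4%, 86.6% and 49.4%. Members of more libraries ranked higher in each list, and the part of score in recurrence was not tested.

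**Figure D5:**
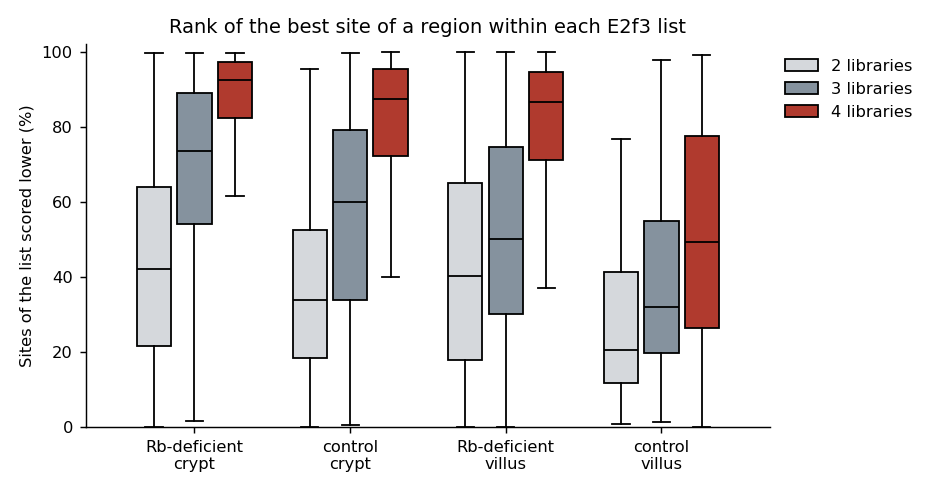
Share of the sites of each E2f3 list that scored below the best site of a distal region without Myc, for regions of 2, 3 and 4 libraries; boxes show the middle of the values with the median, and whiskers the range within 1.5 box lengths. Regions of 4 libraries have medians of 92.4% in Rb-deficient crypt and 49.4% in control villus.

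The highest-scored members included a group of 3 between genes on chromosome 17, far from any coding gene. The region at chr17:39981683, whose nearest coding start, that of Pgk2, was 363871 bp away, had the cap score of 999.00 in Rb-deficient crypt, control crypt and Rb-deficient villus, and 151.88 in control villus. A pair of further members lay within 10 kb of it. The one at chr17:39980822 had 999.00 in both Rb-deficient libraries and no kept site in either control library. The one at chr17:39981995 to 39982346 had 999.00 in Rb-deficient crypt, 92.11 in control crypt, 999.00 in Rb-deficient villus and no kept site in control villus. The nearest non-coding start to the 3 is that of the pseudogene AY036118, 3508 to 4950 bp away. At the cap the scores of these libraries cannot be ordered. The central 31 bp of each of the 3 occurred 1 time in the reference. That count does not cover copies missing from the assembly, and whether repeated sequence raised these scores was not tested.

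Among the exonic members, a region at chr11:4961941 in Gas2l1, a cytoskeletal linker gene, had scores of 150.63 in Rb-deficient crypt, 114.06 in control crypt, 55.43 in Rb-deficient villus and 34.19 in control villus. It had the E2F motif at its centre. A region at chr7:148250266 in B4galnt4, a glycosyltransferase gene, had 133.99, 68.30, 44.75 and 11.28, also with the motif. In Aars, which encodes the alanyl-tRNA synthetase, an exonic region at chr8:113580184-113580191 had 250.67 in Rb-deficient crypt, 76.35 in control crypt and 127.05 in Rb-deficient villus, with no site in control villus and no strict motif.

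Of members with a site in control villus and none in Rb-deficient villus, the highest-scored after the Mirlet7i region were in Brpf3 and near Bcl2l11. Brpf3 encodes a subunit of histone acetyltransferase complexes, and its intron region at chr17:28939062-28939093 had 79.36 in Rb-deficient crypt, 55.76 in control crypt and 38.77 in control villus. Bcl2l11 encodes the death-promoting protein Bim, and the region at chr2:128006109-128006383, 54352 bp downstream of its start, had 208.23, 108.81 and 34.23 in these libraries. Of members with a site in control crypt and none in Rb-deficient crypt, the highest was at chr11:53403976 in an intron of Kif3a, a kinesin motor gene of cilia, with 45.87 in control crypt, 12.56 in Rb-deficient villus and 10.65 in control villus. A region at chr7:133952669-133952798, near Fam57b, was the reverse, with 91.40 in Rb-deficient crypt, 23.97 in Rb-deficient villus and 16.46 in control villus and no site in control crypt.

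Genes were linked to a member when it lay in the gene or when theirs was the nearest coding start within 50 kb. By this count 975 of 22238 coding genes (4.38%) had a member. The lists of genes were chosen with earlier results of these data known, and their genes differ in length, so the counts describe them and no more. Of 41 DNA replication genes 1 had a member, and of 31 genes of G2/M and mitosis and 19 of DNA repair 0 did. For counts of 0 the exact upper limits are 11.2% and 17.6%. The lists are partial, and mitotic genes outside them had members, named after their values were seen. Dsn1, a kinetochore gene, had an intron region in all 4 libraries, and Kif14, a mitotic kinesin gene, had a region 1591.5 bp upstream. Both regions had the E2F motif.

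Of 29 regulators of the Rb-E2F pathway and of entry into S phase, 5 had a member (17.2%, 5.85 to 35.8%): E2f2, E2f7, Ccnd1, Cdkn1a and Cdkn1b. The sequences of 4 regions are shown because they lie by the genes that control Rb and E2F themselves; capitals mark the E2F motif, plus strand of mm9.
3582 bp upstream of Ccnd1, chr7:152129336-152129376: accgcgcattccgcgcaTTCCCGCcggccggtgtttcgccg
Cdkn1a intron, chr17:29232355-29232395: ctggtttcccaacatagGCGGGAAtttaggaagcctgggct
8718 bp downstream of the Cdkn1b start, chr6:134879117-134879157: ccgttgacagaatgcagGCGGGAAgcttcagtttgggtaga
37917 bp upstream of E2f7, chr10:110144584-110144624: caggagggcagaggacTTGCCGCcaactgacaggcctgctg

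Cdkn1a and Cdkn1b encode inhibitors of cyclin-dependent kinases. The Cdkn1a region, 1715 bp downstream of its start, had scores of 40.77 in Rb-deficient crypt, 36.30 in control crypt, 21.82 in Rb-deficient villus and 3.84 in control villus. Cdkn1b had 2 regions: the one shown had 54.15 in Rb-deficient crypt and 42.04 in Rb-deficient villus with no control site, and its neighbour had 67.01, 65.65 and, in control crypt, 21.63. Ccnd1 encodes cyclin D1, which activates the kinases that phosphorylate Rb, and its region had 8.58 in Rb-deficient crypt and 4.71 in control crypt. E2f7 encodes a repressor E2F, and its region had 12.06 in Rb-deficient crypt and 26.54 in Rb-deficient villus. E2f2, an activating E2F, had a region at chr4:135733797 in an intron, with 5.60 in Rb-deficient crypt and 2.10 in control crypt. The regions of Ccnd1, Cdkn1a and E2f2 were named after their values were seen. Rfc2, a subunit of the clamp loader of replication forks, was the replication gene, with a region at chr5:135047613-135047626, upstream of its start, that had 17.38 in Rb-deficient crypt, 10.05 in control crypt and 5.55 in Rb-deficient villus.

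Of 20 intestinal transcription factors, 8 had a member (40.0%, 19.1 to 63.9%), against 4.38% of all coding genes. Their genes had a median length of 19.1 kb, against 15.5 kb over all coding genes. Counting members inside the gene body alone, 6 of the 20 had one (30.0%), against 2.26% of all coding genes. Without the Rb-deficient crypt E2f3 list 3 did (15.0%), against 2.38%. At equal list length 1 did (5%), against 1.65% of all coding genes. The factors of the list set the identity and metabolism of intestinal epithelium, and those described here are the homeobox genes Cdx1 and Cdx2, the nuclear receptors Hnf4a, Hnf4g and Ppara, and the Wnt effector Tcf7l2.

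Their regions had scores in Rb-deficient crypt above 6.72% (Hnf4a) to 81.4% (Tcf7l2) of that list, where the median member was above 63.7%. Cdx1 had 17.56 in Rb-deficient crypt, 14.48 in control crypt and 7.23 in Rb-deficient villus, and Cdx2 had 14.15, 8.13 and 7.85 in these libraries, both with the E2F motif. Hnf4g, at chr3:3614418-3614440 in an intron, had 16.94 in Rb-deficient crypt and 8.31 in Rb-deficient villus, without the motif. Hnf4a, at chr2:163335840 in an intron, had 2.92 in Rb-deficient crypt and 3.13 in control crypt. Tcf7l2, at chr19:55926788-55926791 in an intron, had 26.43 in Rb-deficient crypt, 5.2 in control crypt and 8.83 in Rb-deficient villus. Ppara, at chr15:85576762-85576765 in an intron, had 11.00 in Rb-deficient crypt and 2.46 in Rb-deficient villus. Of these 6 genes, Cdx1 and Cdx2 had the strict motif at their regions, and no region of the 6 had a control villus site. The regions of Cdx2, Hnf4a, Tcf7l2 and Ppara were named after their values were seen.

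Of 20 stem cell and Wnt genes, 4 had a member (20%, 5.73 to 43.7%): Axin2, Ephb2, Ephb3 and Tcf7l2, against 4.38% of all coding genes. The median length of the listed stem cell and Wnt genes was 73.2 kb, against 15.5 kb over all coding genes, and a gene was linked to any member inside it. Of 14 secretory-lineage genes, 3 had one (Hes1, Notch1 and Dll4, all of the Notch pathway), and of 20 enterocyte genes 2 (Slc2a5 and Krt20). Of 14 immune genes and 15 stromal or endothelial genes 0 had one, with upper limits of 23.2% and 21.8%. The 3 sequences show the E2F motif by genes of Wnt signalling and intestinal identity, on the plus strand of mm9.
13286 bp upstream of Axin2, chr11:108768357-108768397: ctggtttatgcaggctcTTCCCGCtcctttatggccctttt
Ephb3 intron, chr16:21215150-21215190: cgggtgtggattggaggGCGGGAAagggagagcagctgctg
7361 bp downstream of the Cdx2 start, chr5:148111465-148111505: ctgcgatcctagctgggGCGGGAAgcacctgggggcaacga

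Axin2 is a feedback inhibitor of Wnt signalling, and its region had 7.54 in Rb-deficient villus and 8.52 in control crypt. Ephb2 and Ephb3 encode receptors that keep crypt cells in place. The Ephb2 region, at chr4:136312118 in an intron, had 7.49 in Rb-deficient crypt and 7.78 in control crypt, and the Ephb3 region had 7.58 and 7.28. Neither had a villus site. Dll4, a Notch ligand, had 15.65 in Rb-deficient crypt and 6.2 in control crypt, and Notch1, the receptor, had an exonic region at chr2:26357219-26357222 with 36.68 and 24.65. Hes1, a repressor that acts downstream of Notch, had 7.69 in Rb-deficient crypt and 8.36 in Rb-deficient villus. Krt20, a keratin of differentiated epithelium, had 5.12 in Rb-deficient crypt and 3.96 in Rb-deficient villus.

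For 437 of the 1180 members (37.0%, 34.3 to 39.9%), the nearest coding gene had an E2f3 site at its own start as well. Of all coding genes, 24.1% had such a site. The first share counts members, so a gene nearest to several of them enters repeatedly, while the second counts each gene 1 time. Among the 557 members inside a gene, 229 (41.1%) lay in a host gene with one. By chromosome, the density was highest on chromosome 11 with 0.845 members per Mb and lowest on X with 0.144.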

How the data were processed

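The submitters' processing notes name Bowtie2 2.2.1, MACS2 2.0.10 and mm9. Going by the deposited file names, the authors kept GEM events falling in MACS2 peaks, with duplicates kept and data merged in an unstated way. The authors' lists hold single positions and a deposited score from 2 to a cap of 999, whose meaning is unstated, so it was used as a rank within a list. Positions were taken to count from 0, and 1 was added. Depth is unknown, and no input library was used here.

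Starts of 22232 coding genes (45974 positions), those of the 22238 annotated coding gene names that have a coding transcript, exons and non-coding genes came from GENCODE M1, and sequence from NCBIM37, the assembly of mm9. A site in an exon of any coding transcript was exonic, otherwise in a coding gene intronic. The best-ranked site of a region was the one that outscored the largest share of its list. Motifs were counted within 50 bp of it on both strands, beside windows 2 kb to each side. Intervals are exact Clopper-Pearson intervals of 95% (scipy 1.17.1, with pandas 2.3.3 and pysam 0.24.0 in Python 3.11.15). The joining and distance steps were tested on simulated positions.

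With 1 library per group there was no test and no p-value. The members and the 10 gene lists were chosen with earlier results of these data known. The regions named were the first 5 of each place, of those with a non-coding start and of those with the motif, ordered by the lowest rank over all 4 libraries, the 3 highest of each presence contrast, up to 3 for each list and those at the 1 kb limit; a part of these is described, and some are not reported here. Alternatives changed the joining distance, the Myc distance and lists, the start distance, the authors' threshold, the list length, the number of libraries, the E2f3 lists used, the windows and the motif.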

Additional observations from a re-analysis of the deposited data

Results flagged for a closer look

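Of the 3707 E2f3 regions without Myc that had sites of 2 or more libraries, 25 lay on contigs outside the reference chromosomes used here. They drew attention as signal outside the main measurement: they have no annotated start, so they entered neither the members nor the comparison sets, and their place and motif were not analysed here.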

How the results depend on the processing

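The number of members was 4015 without the control crypt Myc list, 563 in the upper part of each list, 417 at equal list length, 574 with 3 or more libraries and 620 without the Rb-deficient crypt E2f3 list. For the settings in that order, the E2F motif share was 15.2%, 54.4%, 58.0%, 56.4% and 54.8%. It was 52.7% without the Rb-deficient villus list and 52.5% in the wider window. For the motif without its leading TT it was 85.6%, where windows 2 kb away had 13.4% and promoter regions without Myc 98.2%. Without the control crypt Myc list, the non-coding start share was 3.94%, the CpG-rich share 5.73%, the share with Rb-deficient and no control villus site 34.5%, that for crypt 9.74% and the share with all 4 libraries 5.53%. At equal list length the CpG-rich share was 20.9%, the villus share 39.3%, the crypt share 35.7%, the share with all 4 libraries 28.5% and that of intestinal transcription factor genes 5%. With 3 or more libraries the villus share was 57.3%, the crypt share 4.01%, the share with all 4 libraries 31.7% and the transcription factor share 15.0%. Under that rule a region counted in the crypt share needs both villus sites, and one counted in the villus share both crypt sites. The villus share was 54.0% in the upper part of each list, 58.5% without the Rb-deficient crypt list, where the transcription factor share was 15.0%, and 67.7% without the control crypt list. The crypt share was 3.77% without the Rb-deficient villus list. At 5 kb from a coding start, introns held 38.4%, CpG-rich windows 15.2% and non-coding starts 7.19%. CpG-rich windows of 100 bp to each side held 22.03%, and 3.73% lay within 250 bp of a non-coding start. The share of all coding genes with a member ran from 1.65 to 11.8% over the alternatives and was 2.26% for the gene body count. Leaving out a crypt list means that a region counted in the villus share needs a site in the other crypt list. Beyond such limits set by the rule, the causes were not tested. The alternatives for both gene shares and the members whose central 31 bp occur once were chosen after seeing the data. Apart from the share of all coding genes, all other alternatives left these results within the main interval, or within 1.5 times for the number of members. Leaving out a list could not give the share with all 4 libraries, nor a share between lists that needs it. Depth is unknown, so an absent site may be an uncalled one, or one dropped beside a Myc site. No paired analysis was possible because every group has 1 library.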
